A study of Capra hircus with 198 samples.

Results

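The genes described here move calcium into and out of the store of muscle cells. They are the ryanodine receptors RYR1, RYR2 and RYR3, the voltage sensor CACNA1S, the calsequestrins CASQ1 and CASQ2, the calcium pumps ATP2A1 and ATP2A2, and the pump regulators PLN and SLN. They were chosen by name for their known roles, with earlier results of these data known, and all 10 were found among the 39734 features of the count table. Levels are given as CPM, a gene's counts scaled by the total of its library. No transcript length was used, so levels are compared between tissues and goats for 1 gene at a time and not between genes.

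In striated muscle, an action potential is sensed in the cell membrane and calcium leaves the sarcoplasmic reticulum, a membrane store inside the fibre, through ryanodine receptors. Calsequestrins hold calcium inside this store, and SERCA pumps carry it back, which ends the contraction. Phospholamban (PLN) and sarcolipin (SLN) are small membrane proteins that restrain the pumps. Heart and skeletal muscle use different paralogs for several of these steps, fast and slow skeletal fibres differ again in their pumps, and neurons use ryanodine receptors as well.

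Total RNA was sequenced from 33 tissues, and each tissue was taken from 6 goats, adult females of the dairy breed Murciano-Granadina, with 1 library per goat and tissue. Goats 54, 64 and 73 were dry and goats 2, 3 and 6 were lactating, so each tissue has 6 libraries and each state 3. No treatment, age or stage of lactation was given for the goats. Lactation state cannot be told apart from any other difference between these 2 sets of goats, and since the same goats stand behind every tissue, tissues are not independent replicates of a state difference. Every sample is a piece of whole tissue, so fewer cells of a type and less RNA per cell cannot be told apart in any result below.

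Libraries held 1309071 to 8967448 counts, with a median of 4631625, and those of left ventricle, diaphragm, masseter and esophagus 3715160 to 8967448 counts. In these 4 tissues a count of 3 stood at 0.335 to 0.808 CPM, and a level under that is near the limit of detection. Features of the deposited lncRNA annotation took 85.0% of counts on average, so the members share the remainder with all other genes. By its whole profile, each library was set against the mean of every tissue, and 39 libraries lay closest to a tissue other than the labelled one. None of these were from the left ventricle, diaphragm, masseter or cerebellum. Those that bear on the members are esophagus of goat 6 and neck skin of goat 3, both closest to diaphragm, esophagus of goat 3, closest to neck skin, and 2 libraries each of frontal neocortex (goats 64 and 2) and hippocampus (goats 73 and 3).

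The tissue labels were checked against marker genes. The 5 heart markers with a row in the table summed to 751 to 948 CPM in the left ventricle and to at most 4.81 CPM in the diaphragm and 4.61 CPM in the masseter. Fast fibre markers, mostly troponins and a myosin light chain of fast skeletal fibres, summed to 446 to 2426 CPM in the diaphragm but only 9.69 to 86.5 CPM in the masseter. Of these, TNNI2 had a mean of 0.181 CPM in the masseter and 329 CPM in the diaphragm. TNNT1, the slow troponin T, stood at 1143 ± 166 CPM (SD, n = 6) in the masseter and 1207 ± 425 CPM in the diaphragm. The masseter thus carried slow fibre markers nearly alone, while the diaphragm carried fast and slow ones. MYH1, MYH2, MYH6 and MYH7 were not analysed here.

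The ryanodine receptors were spread over the tissues in 3 different ways. RYR1, the release channel of skeletal muscle, was highest in the masseter (28.1 to 530 CPM, median 148 CPM) and the diaphragm (68.4 to 382 CPM, median 139 CPM), and the ranges of these muscles overlapped. In the left ventricle RYR1 reached at most 2.45 CPM. Outside the muscle tissues and neck skin, its highest mean was 20.2 ± 16.6 CPM in the pineal gland, and the brain regions had means between 1.79 and 10.5 CPM. RYR2, the release channel of the heart, lay between 453 and 824 CPM in the left ventricle, 8.93 times the mean of the next tissue and above every other library. That next tissue was the cerebellar hemisphere with 67.8 ± 8.69 CPM, followed by the reticulum, a forestomach, with 49.9 ± 32.1 CPM and the frontal neocortex with 41.5 ± 25.1 CPM. The ranges of these 3 tissues overlapped. The lowest mean of RYR2 among 33 tissues was that of the masseter, 0.482 CPM. RYR3, a release channel found at lower levels in many cells, was above 0 in every library of the 33 tissues. Its highest means were 47.8 ± 28.5 CPM in the diaphragm, 24.5 ± 6.43 CPM in the left ventricle and 22.2 ± 15.9 CPM in the mandibular lymph node, with overlapping ranges.

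CACNA1S, the calcium channel subunit that senses voltage and opens RYR1 in skeletal muscle, was highest in the diaphragm at 17.8 ± 4.02 CPM and next in the masseter at 8.22 ± 4.96 CPM, again with overlapping ranges. In the left ventricle it had 13 counts over 6 libraries. Among the 29 other tissues it was at 0 in 95 of 174 libraries, and without neck skin its highest mean there was 2.79 CPM, in the hypothalamus.

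The calsequestrins, the calcium-binding proteins of the store, differed most in how widely they were found. CASQ2, the heart form, which slow skeletal fibres also carry, was highest in the left ventricle (77.2 to 113 CPM), followed by the masseter (26.0 to 69.0 CPM) and the diaphragm (6.02 to 28.2 CPM). The left ventricle did not overlap the masseter, while masseter and diaphragm overlapped. Outside the muscle tissues and neck skin, no library exceeded 1.96 CPM. CASQ1, known as the skeletal muscle form, was not confined to muscle. Its mean of 82.8 ± 38.8 CPM in the diaphragm was followed by 71.9 ± 28.8 CPM in the cerebellar hemisphere, 68.3 ± 16.0 CPM in the neurohypophysis and 67.3 ± 23.2 CPM in the adenohypophysis, all above the masseter at 52.7 ± 12.3 CPM. All of these neighbours overlapped in range, and the lowest tissue mean, in the thyroid, was still 3.90 CPM. All 6 libraries of each pituitary lobe lay closest to the other lobe by profile. In the left ventricle CASQ1 had a mean of 4.54 ± 3.86 CPM.

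ATP2A1, the SERCA pump of fast fibres, was found in the diaphragm at 82.7 to 175 CPM and nearly absent from the masseter, where 6 libraries held 11 counts in all (0 to 1.46 CPM). The left ventricle held 24 counts, of which goat 73 gave 16. ATP2A2, the pump of heart and slow fibres and the housekeeping pump of other cells, was present in every library. Its mean was 1255 ± 558 CPM in the masseter, 816 ± 93.1 CPM in the diaphragm and 385 ± 45.1 CPM in the left ventricle, against tissue means of 14.6 to 52.9 CPM outside the muscle tissues and neck skin.

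PLN, which restrains ATP2A2 until it is phosphorylated, was highest in the left ventricle at 237 ± 74.8 CPM, followed by the masseter at 167 ± 20.8 CPM and the diaphragm at 144 ± 44.6 CPM, with overlapping ranges. No tissue mean of PLN was below 16.9 CPM. PLN lies within CEP85L in the RefSeq annotation, and how strand entered the counting is not stated, so reads of these 2 genes cannot be told apart with certainty. CEP85L itself had tissue means of 1.10 to 7.27 CPM. SLN, which restrains the pumps of fast muscle and atria, was highest in the diaphragm (17.7 to 125 CPM). It was at 0 in all libraries of 18 of 33 tissues, and the left ventricle held 51 counts over 6 libraries (0.374 to 1.60 CPM).

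**Figure D1:**
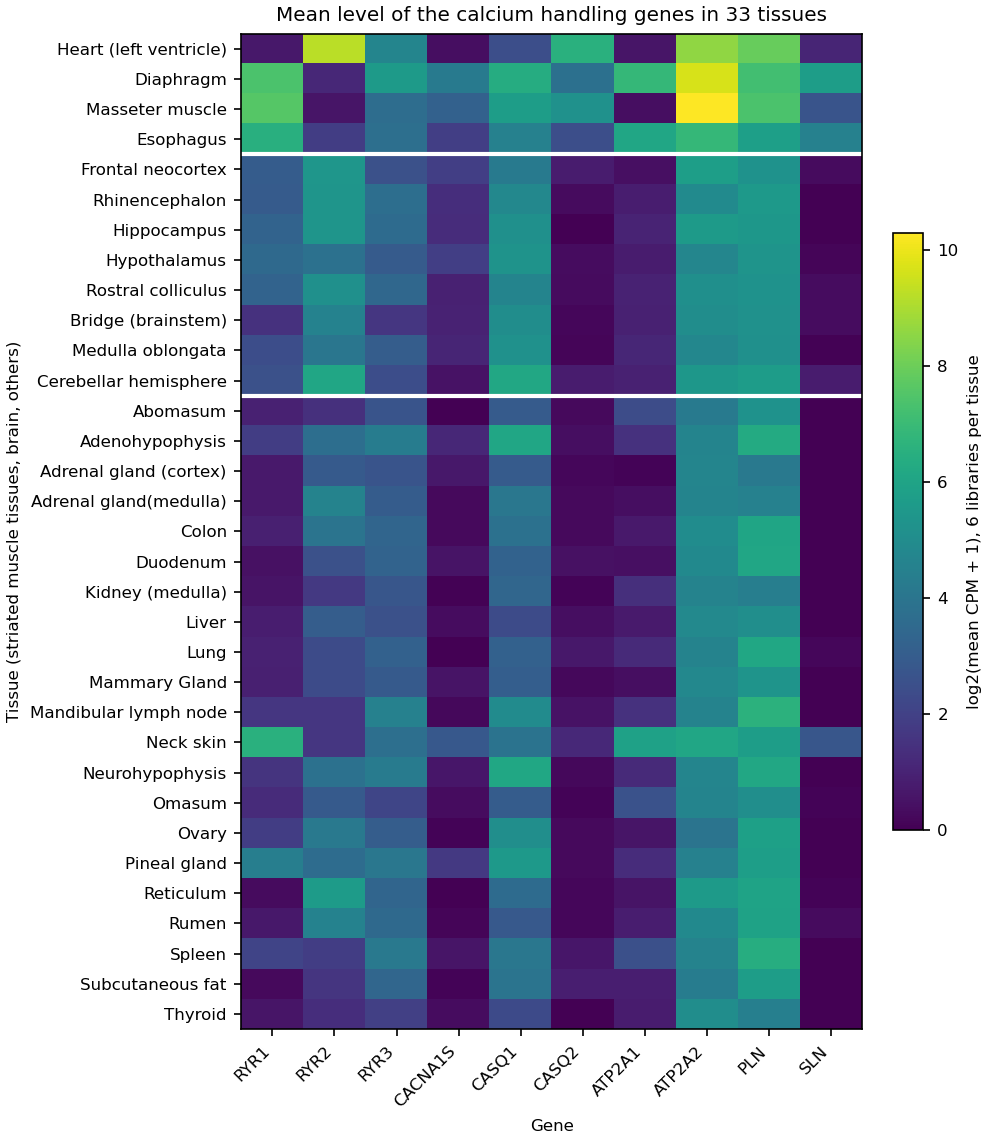
Mean CPM of each gene in 33 tissues, as log2(mean CPM + 1) over 6 libraries per tissue, with the 4 muscle-bearing tissues on top, 8 brain regions next and the other tissues below. Colours are to be read down a column, since genes differ in length: RYR2 peaks in the left ventricle and stays visible in the brain, CASQ1 spreads over brain and glands, and in the neck skin row RYR1 and ATP2A1 rest on 1 library.

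The left ventricle was compared with the diaphragm over 6 libraries each with edgeR's quasi-likelihood test, and p-values were adjusted by Benjamini-Hochberg over all features tested. Of the 10 members, 9 passed at an adjusted p of 0.05, against 16.5% of the 15020 features tested. RYR2, CASQ2 and PLN were higher in the heart, where 8.27% of features were higher. RYR2 ran from 0 to 4.77 CPM in the diaphragm, and its log2 fold change was 9.41 ± 0.62 (SE, adjusted p = 5.46e-09). CASQ2 followed with 3.16 ± 0.36 (adjusted p = 4.82e-06), and neither gene's libraries overlapped between the tissues. PLN was higher by 1.13 ± 0.27 (adjusted p = 0.00726), with overlapping ranges of 151 to 352 CPM in the heart and 91.0 to 204 CPM in the diaphragm.

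Members lower in the heart were RYR1, ATP2A1, CACNA1S, SLN, CASQ1 and ATP2A2, and 8.19% of features were lower. The left ventricle held 31 counts of RYR1 against 5036 in the diaphragm, a log2 fold change of -7.48 ± 0.76 (adjusted p = 9.81e-07). ATP2A1 fell by 7.39 ± 0.57 (adjusted p = 3.28e-08), and CACNA1S fell by 5.53 ± 0.47 (adjusted p = 1.04e-07). These 6 genes did not overlap between the tissues in any library. The share of all features without overlap was not counted, so non-overlap is a description only, here and throughout. ATP2A2, with 328 to 436 CPM in the heart and 686 to 916 CPM in the diaphragm, had the smallest called difference, -0.71 ± 0.15 (adjusted p = 0.00315). RYR3 was the member that did not pass, at -0.60 ± 0.31 (adjusted p = 0.226) and with overlapping ranges.

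Partner genes, from lists chosen like the members with earlier results of these data known, differed in both directions, where 16.5% of all features were called. Of 16 tested voltage sensor and junction partners, 2 were higher and 9 lower in the heart, with a median log2 difference of -0.97 against -0.016 over all features. CACNA1C, the heart's own voltage-gated channel, was at 17.6 ± 13.7 CPM in the heart and 0.704 ± 1.01 CPM in the diaphragm. STAC3, an adaptor that skeletal muscle needs to couple CACNA1S to RYR1, was at 0.152 ± 0.152 CPM in the heart and 25.1 ± 5.25 CPM in the diaphragm. Of 7 tested pump partners, pumps and exchangers, 2 were higher and 3 lower. SLC8A1, the sodium-calcium exchanger of heart muscle, was at 111 ± 18.7 CPM in the heart against 1.38 ± 1.12 CPM, and its paralog SLC8A3 was at 0.0205 ± 0.0502 CPM against 4.20 ± 0.837 CPM. These 4 genes are named here because they passed the test and their libraries did not overlap between the tissues. CAMK2D, a kinase that acts on PLN and RYR2, was also higher in the heart, by 1.85 ± 0.26 on the log2 scale (adjusted p = 4.22e-05). Of 4 tested genes of other release and entry routes, 1 was lower.

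The 2 skeletal muscles differed in 5 of 9 tested members, against 2.24% of 14619 features tested, while RYR2 was too low to be tested. ATP2A1 gave the largest difference of the members, with 82.7 to 175 CPM in the diaphragm, at most 1.46 CPM in the masseter and a log2 fold change of 8.31 ± 0.53 (adjusted p = 3.48e-08). SLN ran from 17.7 to 125 CPM in the diaphragm and from 4.22 to 6.98 CPM in the masseter, with a log2 fold change of 2.98 ± 0.44 (adjusted p = 0.000535). In neither gene did the muscles overlap. RYR3 was higher in the diaphragm by 1.69 ± 0.42 (adjusted p = 0.0374), with overlapping ranges. CASQ2 and ATP2A2 were lower in the diaphragm by -1.82 ± 0.37 (adjusted p = 0.0117) and -0.92 ± 0.19 (adjusted p = 0.0122), again with overlap, since the dry goats' masseter lay at 675 to 816 CPM of ATP2A2 and the lactating goats' masseter at 1657 to 1858 CPM.

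RYR1, CASQ1, CACNA1S and PLN did not pass between these muscles, with log2 fold changes of -0.41 ± 0.54, 0.29 ± 0.32, 0.84 ± 0.28 and -0.64 ± 0.23. With the goat as a block, CACNA1S and PLN passed as well (adjusted p = 0.0437 and 0.0424), where 4.12% of all features were called. The calls of ATP2A1 and SLN held in all 12 alternatives, those of RYR3 in 8, CASQ2 in 10 and ATP2A2 in 9. RYR3 lost its call without goat 3, 6, 64 or 73 (adjusted p = 0.0632 to 0.152), CASQ2 without goat 2 (0.0646) or 54 (0.0524), and ATP2A2 without goat 2 (0.0676), without TMM (0.171) or with lncRNA features left out (0.0960). Of the partner lists, none of 16 junction partners and 1 of 8 pump partners passed, where 2.24% of all features were called. The pump partner was SLC8A3 at 4.20 ± 0.837 CPM in the diaphragm and 0.380 ± 0.359 CPM in the masseter. Fast fibre markers moved with ATP2A1 and SLN between these muscles, from 446 to 2426 CPM in the diaphragm to 9.69 to 86.5 CPM in the masseter, and their part in the differences was not tested.

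Within each paralog family, the share of 1 gene in the family's summed CPM separated the muscles in every goat. ATP2A1 made up 12.5 ± 3.32% of pump CPM in the diaphragm and 0.0189 ± 0.0304% in the masseter. CASQ1 made up 86.3 ± 5.17% of calsequestrin CPM in the diaphragm and 60.2 ± 5.18% in the masseter. RYR1 made up 76.8 ± 4.47% of ryanodine receptor CPM in the diaphragm and 90.3 ± 5.29% in the masseter, the remainder being mostly RYR3. The differences of 12.5, 26.1 and -13.5 percentage points each reached the smallest p of the exact two-sided permutation test over 6 against 6 libraries (p = 0.00216, also after adjustment over the 3 shares). They had 1 direction in 6 of 6 goats, and the paired test gave its smallest p of 0.0313. These shares are of CPM and not of molecules, since the paralogs differ in length. In the left ventricle, RYR2 took 95.8 ± 1.60% of ryanodine receptor CPM and CASQ1 took 5.07 ± 4.45% of calsequestrin CPM.

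**Figure D2:**
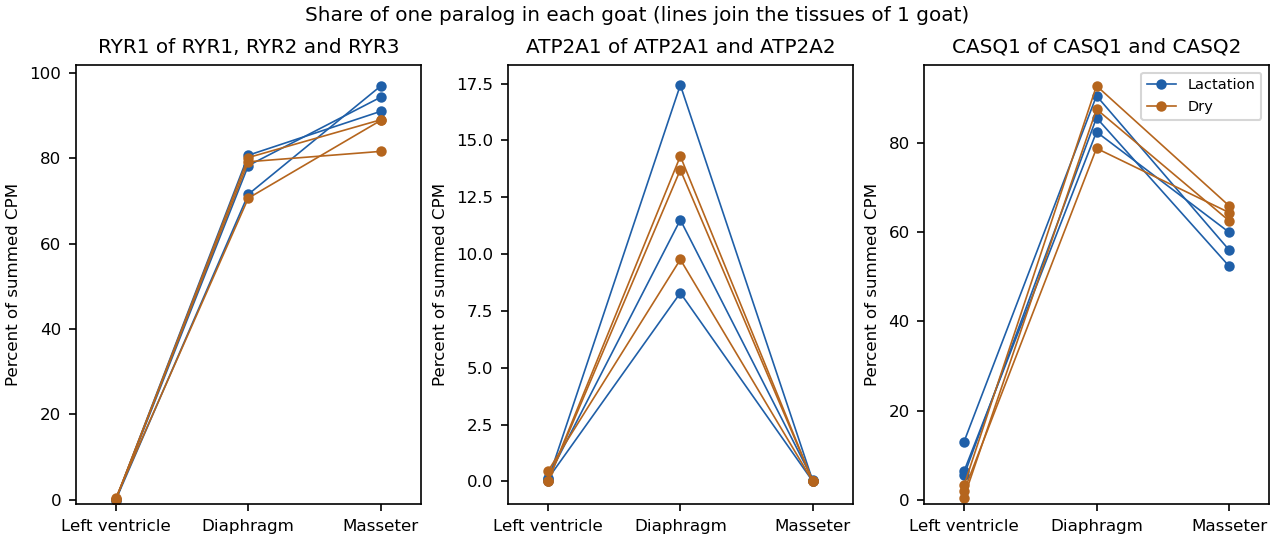
Percent of the family's summed CPM taken by RYR1, ATP2A1 and CASQ1 in the left ventricle, diaphragm and masseter, with lines joining the tissues of 1 goat. Between diaphragm and masseter all 6 goats move up for RYR1 and down for ATP2A1 and CASQ1.

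The esophagus gave the most uneven values, since only 2 of its 6 libraries carried skeletal muscle transcripts. RYR1 stood at 443 CPM in goat 6 and 83.4 CPM in goat 2, and at 0.267, 0, 0.423 and 0.756 CPM in goats 3, 54, 64 and 73. ATP2A1 followed with 322 CPM in goat 6, 73.8 CPM in goat 2 and at most 1.27 CPM in the other 4. SLN was at 103 and 29.6 CPM in goats 6 and 2 and at 0 in the other 4. The same 2 libraries were thus high for each of these genes. Fast fibre markers summed to 4434 CPM in goat 6, 702 CPM in goat 2 and at most 0.635 CPM in the other 4, while squamous epithelium markers stood at 0 in goat 6, 1965 CPM in goat 2, 740 CPM in goat 3 and 4809 to 7123 CPM in the dry goats. In the goats where muscle transcripts were found, ATP2A1 made up as much as 55.7% of pump CPM, against at most 17.4% in the diaphragm.

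Neck skin repeated this in goat 3 alone. There RYR1 was at 544 CPM, ATP2A1 at 342 CPM, CACNA1S at 35.1 CPM and SLN at 34.6 CPM, while the other 5 libraries lay at no more than 1.95 CPM of RYR1, 2.68 CPM of ATP2A1 and 0.979 CPM of CACNA1S, and at 0 for SLN. Fast fibre markers summed to 1501 CPM in that library and to at most 1.70 CPM in the others. The mean of RYR1 in neck skin was 91.4 CPM with this library and 0.808 ± 0.934 CPM (n = 5) without it. In the esophagus it was 87.9 CPM over all libraries and 0.362 ± 0.316 CPM (n = 4) without goats 6 and 2.

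**Figure D3:**
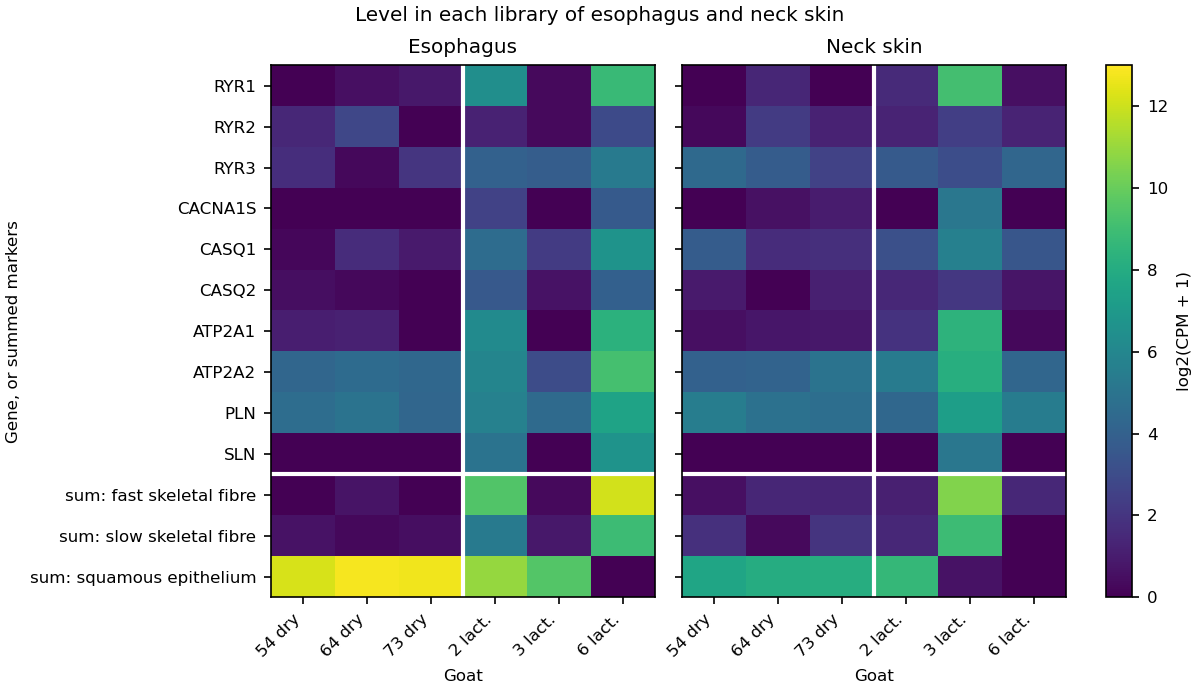
log2(CPM + 1) of each member and of 3 summed marker lists in every library of esophagus and neck skin, dry goats left and lactating goats right of the white line. Goat 6 and goat 2 in the esophagus and goat 3 in neck skin carry the skeletal muscle genes, with RYR1 at 443, 83.4 and 544 CPM.

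Set against the masseter, the esophagus was lower in 3 of 8 tested members, where 19.6% of 14796 features were called and 9.62% were lower. ATP2A2 fell by 4.07 ± 0.98 on the log2 scale (adjusted p = 0.0112), CASQ2 fell by 3.78 ± 0.94 (adjusted p = 0.0130) and PLN fell by 2.38 ± 0.55 (adjusted p = 0.00913). The ranges of ATP2A2, 7.20 to 567 CPM against 675 to 1858 CPM, and of CASQ2 did not overlap. These 3 genes were called in all 13 alternatives (adjusted p at most 0.0492). Without the libraries closest to another tissue (goats 6 and 3), 6 of 8 members were lower, with RYR1, CASQ1 and CACNA1S added (adjusted p = 0.0491, 0.00252 and 0.0104), and 14.8% of all features were lower in that fit. The goat block also gave 6, where 11.2% of all features were lower. SLN changed sign, from 1.31 ± 1.29 to -0.45, with no call either way.

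In the brain, RYR2, CASQ1, ATP2A2 and PLN were the members with the most counts. RYR2 lay at 55.9 to 77.8 CPM in the cerebellar hemisphere. In the frontal neocortex it lay at 28.2 to 68.6 CPM in 5 libraries and at 0 in goat 2, whose neuron markers summed to 9.10 CPM, the lowest of that tissue. Between these regions 21.5% of 17530 features were called, so the count of members called is not read as a result about them. CASQ1 was the 1 member of 6 tested that passed. It ran from 43.9 to 114 CPM in the cerebellum and from 8.78 to 29.4 CPM in the neocortex without overlap, a log2 fold change of 1.63 ± 0.28 (adjusted p = 0.000361). RYR2 differed by 0.25 ± 0.54 (adjusted p = 0.791). Without neocortex goats 64 and 2, ATP2A2 and RYR1 were also called, lower in the cerebellum by -1.06 and -1.11 (adjusted p = 8.77e-05 and 0.0379), where 30.4% of all features were called, and RYR2 then stood at -0.17. Leaving out goat 2 alone gave the same 3 calls, where 26% of all features were called.

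Some partners of these genes differed between the 2 brain regions as well. STAC3 stood at 17.8 ± 4.73 CPM in the cerebellum and 0.199 ± 0.296 CPM in the neocortex, and TRDN, which anchors calsequestrin to the ryanodine receptor, at 25.0 ± 5.23 CPM and 3.96 ± 2.66 CPM. ITPR1, the inositol trisphosphate receptor of Purkinje cells, stood at 108 ± 17.1 CPM and 26.0 ± 13.3 CPM. All 3 are named here because they were called without overlap of libraries (edgeR, adjusted p = 7.32e-07, 0.000587 and 0.00506). Of the lists, 3 of 10 tested junction partners and 2 of 6 release and entry genes were higher, and 3 of 13 pump partners were lower. Over all features, 21.5% were called in this comparison, so the list counts are not read as a result about the partners. Purkinje cell markers summed to 25.9 to 54.2 CPM in the cerebellum and 1.95 to 14.3 CPM in the neocortex, and their part in these differences was not tested.

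Between hippocampus and frontal neocortex, edgeR called none of 7 tested members, where 2.25% of 17229 features were called. At an unadjusted p under 0.05 there were 2, CASQ1 and RYR3, beside 12.3% of all features. CASQ1 ran from 29.6 to 42.8 CPM against 8.78 to 29.4 CPM, a log2 fold change of 0.82 ± 0.25 (edgeR, adjusted p = 0.120), and RYR3 differed by 0.96 ± 0.38 (adjusted p = 0.281). The ranges of CASQ1 did not overlap. DESeq2 called CASQ1 with an adjusted p of 0.0497, and 4.12% of all features.

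**Figure D4:**
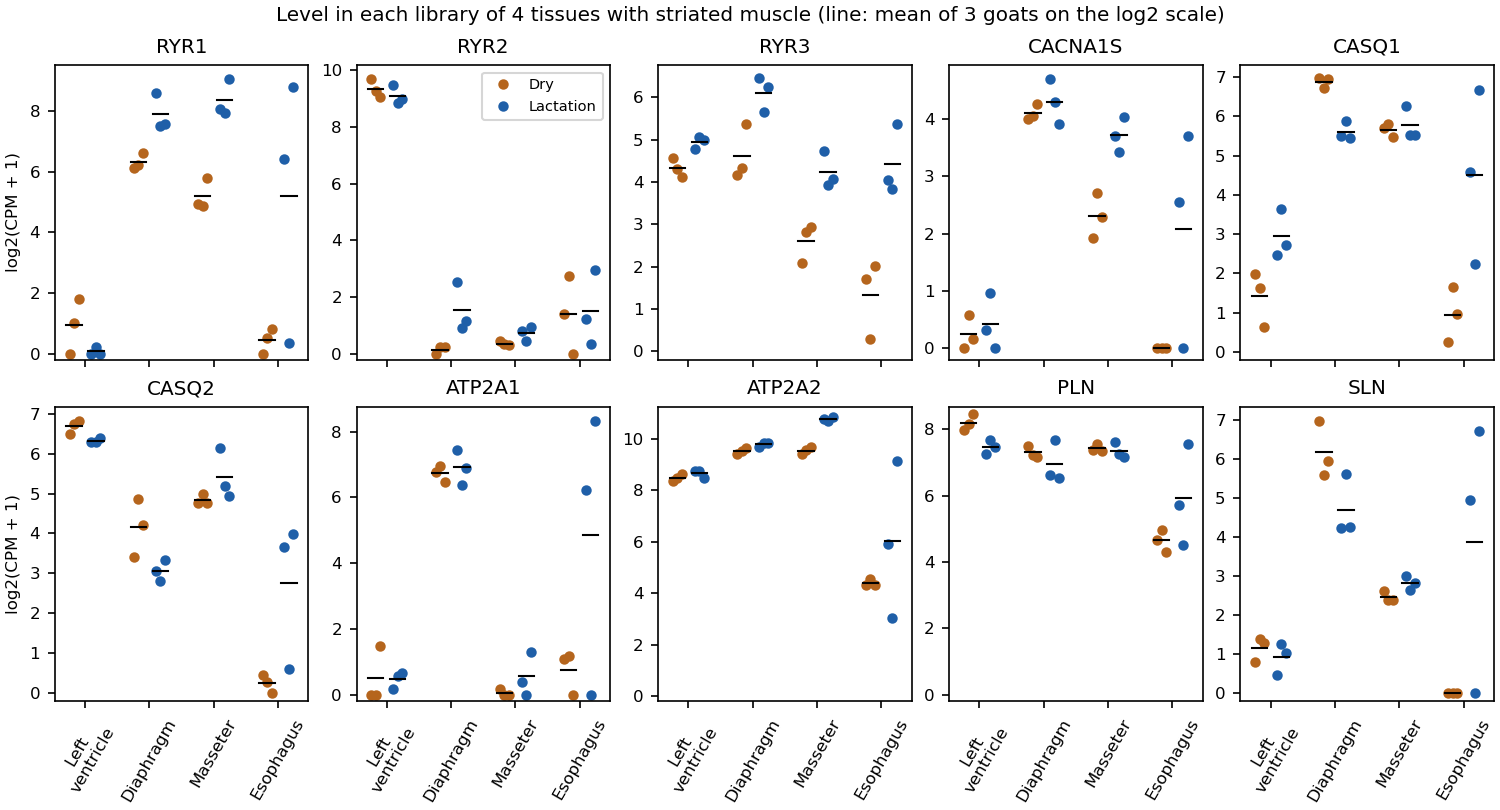
log2(CPM + 1) of each member in every library of the left ventricle, diaphragm, masseter and esophagus, dry goats in brown and lactating goats in blue, with a line at the mean of 3 goats. In the masseter all lactating goats lie above all dry goats for RYR1 (242 to 530 against 28.1 to 54.7 CPM) and ATP2A2, and in the esophagus the members are spread by goat.

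Lactating and dry goats were then compared within each tissue, 3 against 3. With so few goats, non-overlap is a weak description, and its share over all features was not counted. In the masseter, RYR1 was the 1 member of 8 tested that passed, against 1.54% of 15616 features. It stood at 264, 242 and 530 CPM in lactating goats 2, 3 and 6 and at 29.3, 28.1 and 54.7 CPM in dry goats 54, 64 and 73, without overlap. The log2 fold change was 2.67 ± 0.33 (adjusted p = 0.00211), and it passed in all 10 alternatives (adjusted p at most 0.0187). Other members of the release machinery stood higher in lactating goats without passing, RYR3 by 1.35 ± 0.37 (adjusted p = 0.0922) and CACNA1S by 1.11 ± 0.34 (adjusted p = 0.140), both without overlap of the goats.

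ATP2A2 in the masseter stood at 1764, 1657 and 1858 CPM in lactating goats and at 675, 760 and 816 CPM in dry goats. These values do not overlap, yet the fitted difference of 0.72 ± 0.20 did not pass (adjusted p = 0.107). At nearly the same fold changes, DESeq2 called ATP2A2 (0.71, adjusted p = 0.0174) and RYR3 (1.35, adjusted p = 0.0320), where it called 3.56% of all features, and edgeR without a filter called RYR3 (adjusted p = 0.00413). With library totals in place of TMM scaling the median feature was higher by 0.52 in lactating goats. ATP2A2, RYR3 and CACNA1S then passed at 1.23, 1.80 and 1.61 (adjusted p = 0.00225, 0.0123 and 0.0233), where 6.49% of all features were called. CASQ1 and SLN changed sign between the scalings without passing in either. The lncRNA features took 81.8 to 85.4% of counts in lactating and 88.8 to 90.2% in dry goats' masseter. None of the partner lists had a called gene in the masseter.

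In the diaphragm, 3 of 9 tested members passed, against 2.33% of 15310 features. CASQ1 was lower in lactating goats, at 43.9, 58.0 and 43.1 CPM in goats 2, 3 and 6 and at 124, 105 and 123 CPM in goats 54, 64 and 73. The goats did not overlap, the log2 fold change was -1.55 ± 0.22 (adjusted p = 0.00284), and it passed in all 10 alternatives. RYR1 was higher, at 382, 181 and 191 CPM against 68.4, 73.2 and 97.5 CPM, by 1.43 ± 0.31 (adjusted p = 0.0296) and without overlap. SLN was lower, at 17.7, 48.0 and 18.1 CPM against 125, 46.7 and 60.6 CPM, by -1.82 ± 0.39 (adjusted p = 0.0296), and here goat 3 overlapped the dry goats. The call of RYR1 was lost without goat 2, 54, 64 or 73 (adjusted p = 0.0619 to 0.124) and that of SLN without goat 2, 6, 54 or 73 (0.0558 to 0.135).

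RYR3 and CASQ2 in the diaphragm did not overlap between the states and did not pass, but both passed under other settings. RYR3 stood at 86.5, 49.3 and 74.5 CPM in lactating goats and 16.9, 19.1 and 40.3 CPM in dry goats (1.25 ± 0.35, adjusted p = 0.0771). CASQ2 stood at 7.36, 6.02 and 9.14 CPM against 9.60, 28.2 and 17.4 CPM (-1.49 ± 0.38, adjusted p = 0.0533). RYR3 passed in 6 of 10 alternatives, as many as RYR1 and SLN, namely with DESeq2, without TMM, without a filter, with lncRNA features left out and without goat 3 or 73 (adjusted p = 0.000356 to 0.0412). CASQ2 passed in 3, with DESeq2, without a filter and without goat 54 (adjusted p = 0.00161 to 0.0379). DESeq2 called 4.47% of all features there. ATP2A1 and CACNA1S overlapped between the states, and ATP2A2 did not (827 to 916 CPM in lactating and 686 to 814 CPM in dry goats). With library totals as scaling, as in CPM, the median feature was itself higher by 0.26 log2 units in lactating goats' diaphragm. With TMM, the fitted differences of ATP2A1, ATP2A2 and CACNA1S were between -0.0078 and 0.026 log2 units. Of 16 tested junction partners, 2 were lower in lactating goats, where 2.33% of all features were called by edgeR. JPH2, a junctophilin that ties the store to the cell membrane, stood at 7.15 ± 0.702 against 18.6 ± 4.85 CPM (adjusted p = 0.0149). BIN1, which shapes the transverse tubules, stood at 132 ± 23.5 against 212 ± 17.4 CPM (adjusted p = 0.0317).

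In the left ventricle, PLN was the 1 member of 7 tested that passed, against 2.87% of 16292 features. It stood at 151, 203 and 177 CPM in lactating goats and 249, 287 and 352 CPM in dry goats, without overlap, and its log2 fold change was -1.03 ± 0.21 (adjusted p = 0.0157). The call was lost without any 1 of the lactating goats (adjusted p = 0.0730 to 0.0766) and with library totals alone (-0.74, adjusted p = 0.0825). RYR2 stood at 710, 453 and 510 CPM against 824, 611 and 525 CPM, with overlap and no call (-0.44 ± 0.25, adjusted p = 0.378). CASQ1, at 4.48, 11.5 and 5.60 CPM in lactating and 2.95, 2.10 and 0.558 CPM in dry goats, did not overlap and did not pass either (1.67 ± 0.52, adjusted p = 0.102), though it passed with DESeq2 (adjusted p = 0.0492), which called 5.66% of all features, and without a filter (0.0227). CASQ2 at 77.7, 77.2 and 82.4 CPM against 89.5, 106 and 113 CPM did not overlap but did not pass (-0.64 ± 0.21, adjusted p = 0.121). Among the partners, CACNA1C was higher in lactating goats, at 29.7 ± 5.62 against 5.51 ± 1.06 CPM (adjusted p = 0.00106), and so was ORAI2, a store-operated entry channel, at 21.7 ± 2.38 against 8.31 ± 1.57 CPM (adjusted p = 0.0320).

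**Figure D5:**
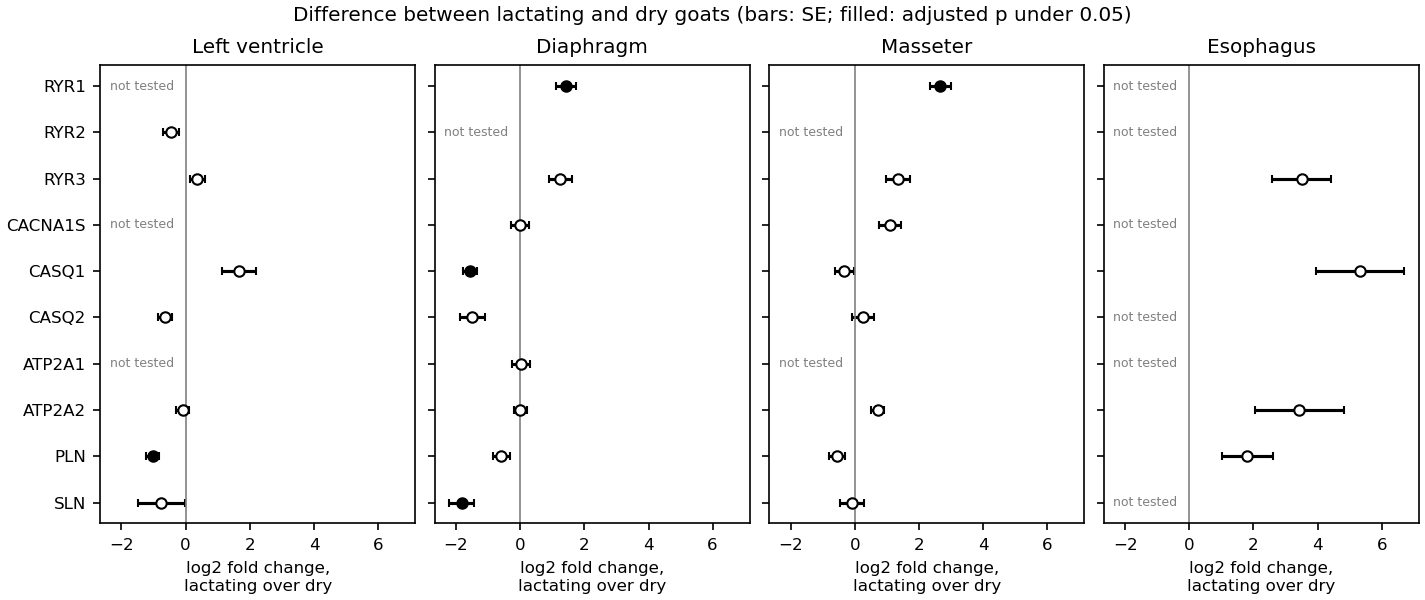
Fitted log2 fold change of lactating over dry goats with its SE for each tested member in 4 tissues, on 1 scale, filled where the adjusted p was under 0.05. RYR1 lies to the right in masseter (2.67) and diaphragm (1.43), CASQ1 and SLN to the left in the diaphragm, and PLN to the left in the left ventricle (-1.03).

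Markers of other cells moved with state in the same libraries. The 3 endothelial markers summed to 37.7 to 51.4 CPM in lactating and 4.54 to 15.1 CPM in dry goats' diaphragm, to 38.0 to 74.2 against 9.64 to 15.0 CPM in the masseter, and to 33.0 to 52.0 against 14.1 to 18.6 CPM in the left ventricle. None of these ranges overlapped and none of the 3 markers was at 0. In the diaphragm, fast fibre markers summed to 446 to 1095 CPM in lactating and 1798 to 2426 CPM in dry goats, and slow fibre markers to 1087 to 1922 against 2712 to 3165 CPM. In the masseter, fast fibre markers were at 26.6 to 86.5 against 9.69 to 13.4 CPM, while slow fibre markers overlapped. The part of these shifts in the differences of RYR1, CASQ1, SLN and PLN was not tested. RYR1 spans a long stretch of the genome. Protein-coding genes were sorted into 10 classes by genomic span. The class medians of the state difference lay between -0.29 and -0.12 in the diaphragm and between -0.011 and 0.15 in the masseter. In these muscles they had no steady order of span, and the class that holds RYR1 stood at -0.22 and 0.00024. In the left ventricle the medians lay between -0.20 and -0.036. In the esophagus they lay between -0.66 and -0.25 and were lowest in the classes of long span. The part of span in the state differences of the members was not tested.

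In the esophagus, edgeR called none of 4 tested members between the states, where 0.717% of 15623 features were called. At an unadjusted p under 0.05 there were 3, CASQ1, RYR3 and ATP2A2, beside 18.5% of all features. DESeq2 called the same 3 genes and 9.68% of all features. CASQ1 stood at 23.1, 3.74 and 102 CPM against 0.187, 2.12 and 0.945 CPM (5.33 ± 1.38, adjusted p = 0.119). The difference rests on goats 6 and 2. Without goats 6 and 3, the lactating group is goat 2 alone, which was assumed to vary like the dry goats. With a single lactating library, which itself carried skeletal muscle transcripts, no calls of members are given for that fit. The log2 fold changes of CASQ1, RYR3, ATP2A2 and PLN were then 4.21, 2.80, 1.32 and 0.862. In that fit 8.35% of all features were called.

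Whether the state difference itself varied over the 4 tissues was tested with an interaction term over 24 libraries. It passed in 4 of 10 members, against 1.85% of 20901 features: CASQ1 (adjusted p = 0.00636), CASQ2 and SLN (both 0.00779) and RYR1 (0.0141). Without the esophagus only CASQ1 passed (0.0421), with RYR1 at 0.0546, CASQ2 at 0.521 and SLN at 0.573, and 7 of 19523 features passed in all (0.0359%). For CASQ1 the fitted differences were 1.67 ± 0.52 in the left ventricle, -1.55 ± 0.22 in the diaphragm and -0.33 ± 0.30 in the masseter. The number of members called fell to 0 without goat 54, 64 or 73, when 4 to 7 features passed in all. Without the esophagus of goats 6 and 3, 2.18% of all features passed. That fit holds a single lactating esophagus library, so its number of members called is not given.

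In the 29 other tissues, 155 of 290 pairs of member and tissue had enough counts to be tested, and 8 were called, against 1.9% of all feature and tissue pairs. CASQ1 gave 5 of these calls. In the ovary it stood at 60.5 ± 19.7 CPM in lactating and 4.83 ± 3.43 CPM in dry goats (3.21 ± 0.48, adjusted p = 0.00615), where 11.7% of features were called. In the kidney medulla it stood at 17.6 ± 1.91 against 1.64 ± 1.17 CPM (3.06 ± 0.52, adjusted p = 0.00179), where 15.1% were called. CASQ1 was also higher in the mandibular lymph node (49.6 ± 15.1 against 10.8 ± 2.99 CPM, adjusted p = 0.0483, with 0.176% of features called) and the colon (22.3 ± 10.5 against 4.16 ± 3.48 CPM, adjusted p = 0.0477, with 2.59% called).

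In the cerebellar hemisphere, however, CASQ1 was lower in lactating goats, at 46.2, 51.5 and 43.9 CPM against 87.2, 88.4 and 114 CPM (-0.92 ± 0.15, adjusted p = 0.00732, with 1.09% of features called). No goat overlapped in any of these 5 tissues. Over the 29 tissues the fitted difference of CASQ1 was above 0 in 21 and below 0 in 8, with a median of 0.67, and since 6 goats stand behind all of them these are not 29 independent results. RYR2 was lower in lactating goats in the ovary (5.45 ± 3.07 against 28.7 ± 3.87 CPM, adjusted p = 0.00579) and the adrenal cortex (1.95 ± 0.370 against 11.1 ± 6.27 CPM, adjusted p = 0.0134, with 3.43% called). RYR1 was higher in the ovary, at 4.57 ± 0.781 against 0.782 ± 0.401 CPM (adjusted p = 0.0489). CASQ2 and SLN were too low to be tested in any of these tissues, and RYR3, ATP2A2 and PLN, tested in all 29, were called in none.

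Over the 33 tissue means, on the log2(CPM + 1) scale, members fell into loose groups. As descriptions over 33 tissues of the same 6 goats, RYR1 and CACNA1S had a Pearson correlation of 0.92, CASQ2 and ATP2A2 of 0.90, ATP2A1 and SLN of 0.82, and RYR1 and RYR2 of -0.26. The esophagus of goats 6 and 2 and the neck skin of goat 3 enter these means. Among 17427 other protein-coding genes, the most similar to ATP2A1 were TNNI2 (0.95), TNNC2 (0.93) and MYLPF (0.92), and to RYR1 they were MYOZ1 (0.91), MYBPC1 (0.90) and NEB (0.87). RYR2 had CACNA1C (0.80) as its most similar gene and CASQ1 had TRAF3IP3 (0.82), which peaked in the cerebellar hemisphere. CASQ2 and ATP2A2 shared TMEM182 (0.95 for each) as the most similar gene, and SLN was near MYL1 (0.95). RYR3 was nearest to AVEN (0.77) and PLN to CEP85L (0.78). The authors' deposited tau score, a measure of tissue specificity, was highest for SLN (0.974), CASQ2 (0.938) and CACNA1S (0.907) and lowest for PLN (0.366) and CASQ1 (0.446).

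Several members overlap other features, which limits how their counts can be read. The deposited lncRNA annotation holds 5 intronic features in RYR2, of which RYR2-IT1 was highest in the cerebellar hemisphere (27.1 CPM) and stood at 4.42 ± 1.07 CPM in the left ventricle, where RYR2 stood at 606 CPM. RYR3-IT1 was also highest in the cerebellar hemisphere (17.9 CPM), where RYR3 stood at 4.42 CPM, and stood at 3.94 ± 1.15 CPM in the diaphragm. CASQ1-OT1, which overlaps CASQ1, was highest in the neurohypophysis (14.2 CPM) and stood at 0.314 ± 0.337 CPM in the diaphragm. ATP2A1 overlaps RABEP2 in the RefSeq annotation, which stood at 5.97 CPM in the diaphragm and 0.588 CPM in the masseter.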

How the data were processed

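Expected counts for each feature and library were deposited by the authors, from strand-specific total RNA libraries per the labels, with STAR, StringTie and edgeR named in the submitters' processing notes while the genome build, tool versions and strand setting of the counting were not given in the sources used here. The authors' deposited tau score is a fraction from 0 to 1 with no formula given. A further deposited file, though called gene length, contains offsets in natural log units that are centred within each feature, so it gave no lengths and served as an alternative scaling. Counts were divided by library totals to give CPM, and rounded for the fits. edgeR (4.0.16, R 4.3.3) used filterByExpr with a minimum count of 10, TMM, the quasi-likelihood F-test and Benjamini-Hochberg adjustment at 0.05; SE is the log2 fold change divided by the square root of F. Paralog shares were planned per protein length and, with no lengths, were taken from CPM directly. Intervals and floors of 3 counts cover counting error only. The labels tie libraries of 1 number to 1 goat, and same-goat residuals of tissue pairs correlated at -0.24 to 0.16. On simulated data, the fit recovered 95.1% of 4-fold changes among 13905 genes for diaphragm against masseter and 74.2% among 14563 genes for masseter by state. The simulated counts had a spread set by mean level alone and no shift in scaling between the groups, so recovery in the real data may be lower. Alternatives were DESeq2 (1.42.0), no TMM, deposited offsets, no filter, no lncRNA features, a goat block, and leaving out goats or libraries closest to another tissue, the last for state comparisons added after the data were seen. Named genes were all members, up to 4 called partners per direction without overlap, and the 3 most similar genes of a member. Members and lists were chosen with earlier results of these data known. P-values of state comparisons rest on the spread between goats of 1 state. Main tissue comparisons were unpaired over both states, with libraries of the same goat taken as independent. Their spread thus also holds state differences.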

Additional observations from a re-analysis of the deposited data

Results flagged for a closer look

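In each of 78 groups of 6 libraries of 1 member in 1 tissue, the gap of the highest or lowest library to its neighbour was set against Dixon's critical value. Normally distributed values pass it in about 1 group of 20, a rate that need not hold for CPM, least of all at few counts. The critical value was passed in 19 groups, always by a high library, and 13 of these belong to 2 libraries. Esophagus of goat 6 stood apart with 443 CPM of RYR1, 102 CPM of CASQ1, 322 CPM of ATP2A1, 567 CPM of ATP2A2, 186 CPM of PLN and 103 CPM of SLN. Neck skin of goat 3 stood apart with 544 CPM of RYR1, 35.1 CPM of CACNA1S, 50.5 CPM of CASQ1, 342 CPM of ATP2A1, 286 CPM of ATP2A2, 153 CPM of PLN and 34.6 CPM of SLN. Masseter of goat 2 stood apart with 75.9 CPM of CASQ1 and 69.0 CPM of CASQ2. RYR2 reached 4.77 CPM in the diaphragm of goat 2, from 24 counts. ATP2A1 stood apart on few counts with 1.78 CPM in the left ventricle of goat 73 (16 counts), 1.46 CPM in the masseter of goat 6 (8 counts) and 1.42 CPM in the frontal neocortex of goat 6 (7 counts). The state difference varied over left ventricle, diaphragm, masseter and esophagus by edgeR's interaction test for CASQ1 (adjusted p = 0.00636), CASQ2 (adjusted p = 0.00779), SLN (adjusted p = 0.00779) and RYR1 (adjusted p = 0.0141). Without the esophagus only CASQ1 passed, and no member passed when any 1 of the dry goats was left out.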

How the results depend on the processing

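Of 178 alternatives to counts of called members, paralog shares and ratios of the highest to the next tissue, 135 stayed within the limits set for an unchanged result, among them all for the left ventricle against the diaphragm and for the paralog shares. The causes of the changes were not tested. With library totals in place of TMM, the median feature moved by -0.38 between left ventricle and diaphragm, by 0.18 to 0.85 in the other tissue pairs and by 0.26 to 0.52 between the states. The goat block raised the called members from 3 to 6 between esophagus and masseter, added CACNA1S and PLN between diaphragm and masseter, and changed no other call between tissues or in the interaction. Leaving out libraries closest to another tissue gave 6 between esophagus and masseter and 3 between cerebellum and neocortex. For state in the esophagus and for the interaction it left a single lactating esophagus library, so those counts are not given. DESeq2 called 1 member between hippocampus and neocortex, 2 by state in the left ventricle, 5 in the diaphragm, 3 in the masseter, 3 in the esophagus, 16 in the 29 other tissues and 7 for the interaction. It called 5.66, 4.47, 3.56 and 9.68% of all features by state in those 4 tissues. Without a filter these were 2 between cerebellum and neocortex and 2, 5, 2 and 7 by state in the 4 muscle tissues. They were 17 in the 29 other tissues and 10 for the interaction. Calls over all features rose too, by state from 468 to 1086 in the left ventricle and from 356 to 954 in the diaphragm. They rose from 241 to 806 in the masseter and from 112 to 847 in the esophagus. For the 29 other tissues and the interaction, DESeq2 and the fit without a filter called more members. No share of all features is at hand there, so these counts are left out. Without TMM, state calls numbered 0 in the left ventricle and 4 in the masseter, where 688 and 1014 features were called in all. The interaction gave 1 without the esophagus, where 0.0359% passed, and more without lncRNA features, with no share of all features at hand. Leaving out 1 goat gave 3 to 4 calls between diaphragm and masseter (3 without goat 2), 3 to 5 between esophagus and masseter (5 without goat 6), 1 to 3 between cerebellum and neocortex, 0 to 1 by state in the left ventricle, 1 to 4 in the diaphragm (1 without goat 2), 0 to 5 in the esophagus (5 without goat 3), 5 to 8 in the other tissues (5 without goat 2, 64 or 73) and 0 to 8 for the interaction. Calls over all features moved with the goat left out as well. Between esophagus and masseter they went from 2895 to 4149 without goat 6, and between diaphragm and masseter from 327 to 228 without goat 2. By state they went from 356 to 154 in the diaphragm without goat 2 and from 112 to 372 in the esophagus without goat 3. The log2 ratio of the highest to the next tissue moved for RYR2 from 3.16 to 3.76 with lncRNA counts left out of the library size and to 4.62 with TMM over all libraries, for CASQ1 from 0.20 to 1.34 with that TMM, and for ATP2A1 from 0.81 to 6.57 with medians. Log2 differences that changed sign did so without a call. Without TMM these were RYR3 between esophagus and masseter (0.097), PLN between hippocampus and neocortex (0.20), ATP2A2 by state in the left ventricle (0.17), CACNA1S in the diaphragm (0.24) and CASQ1 (0.15) and SLN (0.42) in the masseter. With the block they were SLN between esophagus and masseter (-2.62) and PLN (0.020) and RYR2 (0.034) between hippocampus and neocortex. Without libraries closest to another tissue they were SLN between esophagus and masseter (-0.45), RYR2 between cerebellum and neocortex (-0.17) and PLN (0.10) and RYR1 (-0.12) between hippocampus and neocortex. With lncRNA features left out they were PLN between cerebellum and neocortex (-0.088) and CACNA1S by state in the diaphragm (0.15), which stood at 0.0029 with DESeq2 and 0.0098 without a filter. Over single goats left out, differences crossed 0 for RYR1 between diaphragm and masseter (-0.66 to 0.016), SLN between esophagus and masseter (-0.82 to 1.61), PLN between cerebellum and neocortex (-0.031 to 0.23), PLN (-0.12 to 0.23), RYR1 (-0.053 to 0.43) and RYR2 (-0.52 to 0.14) between hippocampus and neocortex, ATP2A2 by state in the left ventricle (-0.26 to 0.060), ATP2A1 (-0.31 to 0.33), ATP2A2 (-0.10 to 0.099) and CACNA1S (-0.29 to 0.12) in the diaphragm and CASQ2 (-0.42 to 0.51) and SLN (-0.36 to 0.098) in the masseter. Depth limits the low members: 3 counts stood at 0.335 to 2.29 CPM, and an ATP2A1 or CACNA1S level below that was near the limit of detection.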
